A study of Mus musculus with 2 samples.

Results

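The genes of the colony-stimulating factors and their receptors were described in nuclear RNA of mouse macrophages. They are the ligand genes Csf1, Csf2 and Csf3 and the receptor genes Csf1r, Csf2ra, Csf2rb, Csf2rb2 and Csf3r, chosen by gene symbol, and all 8 were found among the 55536 annotated genes of the tables, of which 22028 are protein-coding. The macrophages were grown from bone marrow of the strain C57BL/6J, with no mutation or transgene named. Lipid A, the TLR4-activating portion of endotoxin, was given at 100 ng/ml over 12 hours and removed for a further 12 hours, after which 100 ng/ml was given again for 60 min. Ribosomal RNA was depleted and total RNA of the nuclear fraction was sequenced, so that unspliced and intron-holding RNA is measured along with finished messages. The series holds 1 group of 2 libraries, replicate 1 made from 1 µg of RNA and replicate 2 from 500 ng, and the label fields name the fraction once as nucleus and once as nucleoplasm. Other treatments were not analysed here, so none of these values is a response to Lipid A. Both libraries carry the same donor identifier, and whether separate mice were used is not stated, so their spread may be technical. The medium in which the cells were grown, and any Csf1 protein added to it, is not given in the sources used here.

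Colony-stimulating factors are secreted proteins that keep myeloid cells and their precursors alive, dividing and maturing. Csf1 (macrophage colony-stimulating factor) acts through Csf1r, a receptor tyrosine kinase that defines macrophages and monocytes and also binds interleukin-34. Csf2 (granulocyte-macrophage colony-stimulating factor) acts through a specific alpha chain, Csf2ra, paired with the common beta chain Csf2rb, and Csf3 (granulocyte colony-stimulating factor) acts through Csf3r; these receptors have no kinase of their own and signal through JAK kinases and STAT proteins. Activated macrophages are known to make all 3 ligands.

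The receptor genes and Csf1 were among the more abundant protein-coding genes, and Csf2 and Csf3 rested on few counts. By mean level Csf2 still stood above 62.2% of annotated protein-coding genes, and Csf3 above 49.2%. Levels are TPM, a share of all transcripts after division by length, from the deposited gene tables made in the format of RSEM unless kallisto, which made other deposited tables, is named. A total of 6 of 8 members reached 1 TPM in both libraries, against 39.9% of annotated protein-coding genes. The median member was at 62.2 TPM in replicate 1 and at 44.8 TPM in replicate 2, and the median protein-coding gene 0.28 and 0.21 TPM. By mean level the order was Csf1r, Csf1, Csf3r, Csf2ra, Csf2rb2, Csf2rb, Csf2 and Csf3. Neighbours in that order were called separated where their log2(TPM + 0.1) difference had 1 sign in both libraries and a mean above its SD, which held for 5 of 7 neighbouring pairs. Csf1 and Csf3r were not separated (difference 0.26 ± 0.73; SD, n = 2), and neither were Csf2 and Csf3 (2.61 ± 3.05; SD, n = 2). For Csf3r over Csf2ra (0.13 ± 0.07; SD, n = 2) and Csf2rb2 over Csf2rb (0.12 ± 0.06; SD, n = 2) the deposited TPM intervals overlapped, and both orders were the other way round in the kallisto tables.

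**Figure D1:**
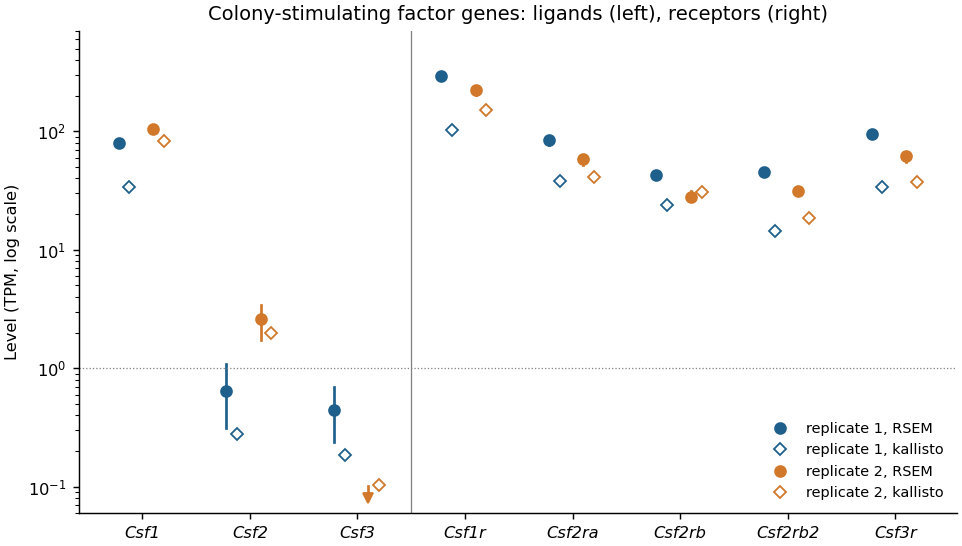
Level of each member in both libraries (vertical axis, TPM on a log scale; ligand genes left of the vertical line, receptor genes right). Filled circles are the RSEM gene tables with the deposited interval as a vertical line, open diamonds are kallisto, the downward triangle is a value of 0 and the dotted line is 1 TPM. Csf1 and the 5 receptor genes sit above 10 TPM in every table, while Csf2 and Csf3 stay below 3 TPM.

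Expected counts on annotated genes summed to 23630328 in replicate 1 and 15687634 in replicate 2. Nuclear protein-coding genes took 28.1% of all TPM in replicate 1 but 18.8% in replicate 2, so raw TPM differences between the libraries carry this scale. At the median of nuclear protein-coding genes the log2 TPM ratio, replicate 1 over replicate 2, was 0.47 (kallisto -0.38). In bulk RNA, fewer cells that express a gene and less RNA per cell cannot be told apart. The macrophage label was checked on marker genes: 8 of 8 macrophage markers reached 1 TPM in both libraries, led by Lyz2 (lysozyme) at 2211 and 1413 TPM. None of 12 neutrophil markers did (highest by mean Mmp8, 0.94 and 0.98 TPM, with S100a9 at 1.12 and 0.14 TPM; summed level 3.37 and 1.87 TPM, with Elane, Cxcr2 and Retnlg at 0 counts, although kallisto put Cxcr2 at 0.722 and 1.20 TPM). Of 8 T cell markers 0 did (highest by mean Lck, 0.22 and 0.13 TPM, with 6 at 0 counts, although kallisto put Cd3d at 0.920 and 3.31 TPM). Among 8 stromal and endothelial markers 1 did (Kdr, 13.7 and 4.14 TPM). Pecam1 was at 1.48 and 0.53 TPM, although kallisto put it at 1.59 and 5.29 TPM. Of 6 mast cell and basophil markers 1 reached 1 TPM in both libraries (Hdc, 3.23 and 1.67 TPM).

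Csf1 (ENSMUSG00000014599.10; mm10 chromosome 3, 107741048 to 107760469, minus strand) was the one ligand gene at a high level. It was at 79.6 TPM in replicate 1 and at 105 TPM in replicate 2, a mean of 92.5 ± 18.3 TPM (SD, n = 2), and 441 protein-coding genes stood above it. The counts behind these levels were 6471 and 8271. As CPM, counts scaled to the total on annotated genes, Csf1 was at 274 in replicate 1, with a 95% Wilson interval of 267 to 281, and at 527 in replicate 2, with one of 516 to 539. Replicate 2 was the higher one on both scales, and these intervals do not overlap, although they cover counting error only, since no molecular identifiers are described. Csf1r stood above Csf1 by 1.49 ± 0.56 on the log2 scale (SD, n = 2), with 1.89 in replicate 1 and 1.10 in replicate 2.

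Most Csf1 signal fell on a transcript with the long coding region and the long 3′ UTR. Csf1-201 (coding length 1656 bases, 3′ UTR 2111 bases) was at 43.6 TPM in replicate 1 and at 67.8 TPM in replicate 2, which is 54.8% and 64.3% of the gene. Csf1-202, with the same 3′ UTR and a coding length of 771 bases, had 18.2 and 22.2 TPM (22.8% and 21.1%). Shorter splice forms of Csf1 are known to encode a form held at the cell surface, and longer forms secreted ones. Set against the sum of Csf1-201 with the other transcript of 1656 coding bases the short form Csf1-202 made up 28.0% of the sum in replicate 1 and 23.8% in replicate 2 (kallisto 29.0% and 30.4%). The kallisto tables gave Csf1-201 a smaller part of the gene, 34.3% and 36.2% of its TPM.

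The Csf1 promoter is shown because it holds a motif that few promoters hold and because the leading transcript Csf1-201 starts at the same base. The window runs from 250 bases before to 50 bases after the RefSeq start (GRCm38.p6, chr3:107760420-107760719, minus strand), and promoter sequences were found for 5 of 8 members. The capitals mark the NF-kB site known from the kappa enhancer, searched in its exact form and found here on the other strand with its first base at position -154 relative to the start.
Csf1: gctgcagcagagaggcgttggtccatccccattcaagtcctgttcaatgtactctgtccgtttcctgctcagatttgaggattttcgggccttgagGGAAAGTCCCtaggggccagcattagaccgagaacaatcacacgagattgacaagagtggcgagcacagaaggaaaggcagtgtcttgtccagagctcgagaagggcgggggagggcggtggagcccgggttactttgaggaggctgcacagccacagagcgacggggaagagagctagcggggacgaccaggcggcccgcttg
These 10 letters occurred on either strand in 51 of 32851 RefSeq promoter windows (0.155%). They were in none of the windows of Csf2, Csf2ra, Csf2rb2 and Csf3r. The AP-1 motif TGANTCA, in 7.81% of windows, and GAGATTCC, a core known from colony-stimulating factor promoters and in 0.904% of windows, were in none of these 5. The Csf2 window does not reach the start of Csf2-201, which lies 232 bases downstream of the RefSeq start. The bases just before that transcript were therefore not searched, and absence from the window does not describe them. A match describes the letters only, and binding was not measured.

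Csf2 (ENSMUSG00000018916.5; mm10 chromosome 11, 54247271 to 54249667, minus strand) was low and unequal between the libraries. It had 10 expected counts and 0.64 TPM in replicate 1 (deposited interval 0.315 to 1.09), against 36 counts and 2.62 TPM in replicate 2 (1.75 to 3.40). Only replicate 2 passed 1 TPM, and the intervals do not overlap. As CPM this was 0.423 (95% Wilson interval 0.230 to 0.779) and 2.29 (1.66 to 3.18). In the kallisto tables it had 16 counts in replicate 1 and 77 in replicate 2 (0.276 and 2.00 TPM). A gene annotated antisense to it, Gm12223, overlaps its exons and had 0 counts in both libraries.

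Csf3 (ENSMUSG00000038067.2; mm10 chromosome 11, 98701263 to 98703629, plus strand) was the lowest member. It had 14 expected counts and 0.44 TPM in replicate 1, and 0 counts in replicate 2, a depth at which up to 3 counts, or 0.106 TPM, would be allowed. The kallisto tables listed 22 counts in replicate 1 and 8 in replicate 2 (0.185 and 0.104 TPM). Csf2 and Csf3 were thus unequal in opposite directions, and both rest on few counts.

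AU-rich elements are sequences in the 3′ UTR through which proteins such as tristetraprolin (Zfp36) are known to destabilise cytokine RNA. The 30 bases of each ligand's 3′ UTR that hold the most ATTTA pentamers are shown to compare them, with the pentamers in capitals (read from the GENCODE M21 transcripts).
Csf2-201, chromosome 11: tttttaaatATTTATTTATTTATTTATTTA
Csf3-201, chromosome 11: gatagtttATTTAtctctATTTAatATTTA
Csf1-201, chromosome 3: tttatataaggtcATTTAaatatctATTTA
The 317-base 3′ UTR of Csf2-201 held 9 ATTTA pentamers, overlapping ones counted, and 4 copies of the nonamer TTATTTATT. That of Csf3-201 (669 bases) held 6 pentamers and that of Csf1-201 (2111 bases) 4, with 0 nonamers in both. Among 20831 protein-coding genes with a 3′ UTR of 30 bases or more, 7.73% held a nonamer and 0.331% held 4 or more. The leading transcript of Csf1r by mean level, Csf1r-201 (3′ UTR 654 bases), held 2 pentamers, so Csf1-201 was not denser in them than Csf1r-201. The leading transcripts of the other 4 receptor genes held 0. Csf1r-202, with a 3′ UTR of 1669 bases, was not searched.

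Csf1r (ENSMUSG00000024621.16; mm10 chromosome 18, 61100598 to 61132149, plus strand) was the highest member. It was at 295 TPM in replicate 1 and at 225 TPM in replicate 2, a mean of 260 ± 49.2 TPM (SD, n = 2), and 124 protein-coding genes stood above it. Its expected counts were 26563 and 13225. In the kallisto tables it was at 103 TPM in replicate 1 and at 152 TPM in replicate 2, and in both kinds of table this is the direction in which the median nuclear protein-coding gene differed between the libraries. The gene Hmgxb3 overlaps its end by 873 bases on the opposite strand and had 8.44 and 7.19 TPM.

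The Csf1r level in replicate 2 leaned on a short transcript. Csf1r-201, the 22-exon transcript that encodes the full receptor (3870 bases), was at 199 TPM in replicate 1 and at 72.8 TPM in replicate 2, which is 67.4% and 32.3% of the gene. Csf1r-202, of the same coding length of 2931 bases, had 59.7 and 60.8 TPM. By kallisto Csf1r-202 had only 5.84 and 8.59 TPM (5.66% and 5.65% of the gene), and the cause of this gap was not tested. Csf1r-205, a 3-exon transcript of 416 bases, had 33.3 and 89.9 TPM (11.3% and 39.9%). It held 184 and 421 expected counts, only 0.692% and 3.18% of the counts of the gene, at an effective length of 209 bases in replicate 1 and 198 in replicate 2. Of its 416 bases, 414 lie in exons 1 to 3 of Csf1r-201, so reads there can match both transcripts. Without Csf1r-205, an alternative chosen after seeing the data, Csf1r was at 262 TPM in replicate 1 and at 136 TPM in replicate 2, a mean of 199 ± 89.2 TPM (SD, n = 2), and it was still the highest member by RSEM. The kallisto tables also gave this transcript a large share, 22.2% and 47.1%, and without it they held 80.4 and 80.3 TPM, below the 83.4 TPM of Csf1 in replicate 2.

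**Figure D2:**
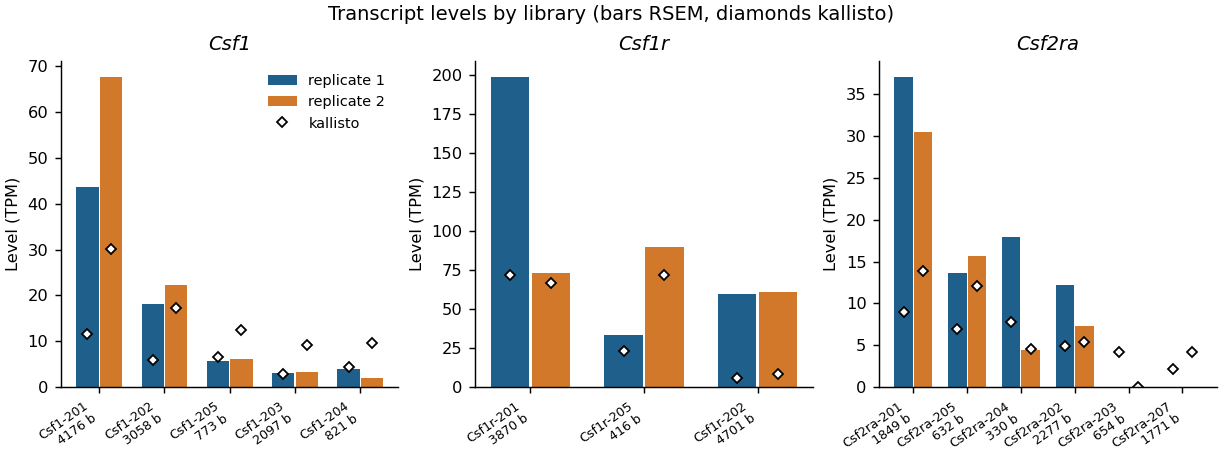
Level (vertical axis, TPM) of each transcript of Csf1, Csf1r and Csf2ra that held 10% or more of its gene in any table, with its length in bases under its name. Bars are RSEM values, replicate 1 left of replicate 2, and diamonds are kallisto. Csf1r-201 had 199 and 72.8 TPM while the 416-base Csf1r-205 had 33.3 and 89.9 TPM.

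Csf3r (ENSMUSG00000028859.14; mm10 chromosome 4, 126024550 to 126044440, plus strand), the receptor of a ligand that was near 0 here, was itself high. It was at 95.3 TPM in replicate 1 and at 61.6 TPM in replicate 2, a mean of 78.5 ± 23.8 TPM (SD, n = 2), from 5882 and 3416 counts. The gene is best known from neutrophils, whose defining markers were at or near 0 in both libraries as given above. Csf3r-201, which encodes the full receptor, was at 61.9 TPM in replicate 1 and at 37.3 TPM in replicate 2 (64.9% and 60.6%). The processed transcript Csf3r-203 had 23.7 and 15.3 TPM (24.8% and 24.9%), but in the kallisto tables it was close to 0 in replicate 1 and had 1.11 TPM in replicate 2. Csf3r-202, of the same coding length as Csf3r-201, had 6.90 and 7.09 TPM (7.24% and 11.5%), and 32.5% and 36.6% of the gene in the kallisto tables.

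Csf2ra (ENSMUSG00000059326.7; mm10 chromosome 19, 61223957 to 61228429, minus strand), the alpha chain that binds Csf2, was at 84.5 TPM in replicate 1 and at 58.2 TPM in replicate 2, a mean of 71.3 ± 18.6 TPM (SD, n = 2). As CPM it was 108 (95% Wilson interval 104 to 112) and 109 (104 to 114), so the libraries overlapped on that scale. Less of its signal came from protein-coding transcripts than for any other member. The coding transcript Csf2ra-201 was at 37.1 TPM in replicate 1 and at 30.4 TPM in replicate 2 (43.9% and 52.3%). The retained-intron transcript Csf2ra-205 had 13.6 and 15.6 TPM (16.1% and 26.8%), and another, Csf2ra-202, 12.2 and 7.35 TPM (14.4% and 12.6%). The 330-base processed transcript Csf2ra-204 had 17.98 TPM from 59.96 counts in replicate 1 and 4.43 TPM from 12.03 counts in replicate 2. By counts, which rise with transcript length, Csf2ra-201 held 62.9% and 68.8% of the gene. In kallisto TPM it held 23.9% and 33.4%.

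The promoter windows of Csf3r and Csf2ra are shown because both hold AGAGGAAG, in capitals, a form of the site known for PU.1 (Spi1), the transcription factor that many myeloid genes depend on. Csf3r lies at GRCm38.p6 chr4:126024409-126024708 on the plus strand and Csf2ra at chr19:61228369-61228668 on the minus strand, and both are written along the gene.
Csf3r: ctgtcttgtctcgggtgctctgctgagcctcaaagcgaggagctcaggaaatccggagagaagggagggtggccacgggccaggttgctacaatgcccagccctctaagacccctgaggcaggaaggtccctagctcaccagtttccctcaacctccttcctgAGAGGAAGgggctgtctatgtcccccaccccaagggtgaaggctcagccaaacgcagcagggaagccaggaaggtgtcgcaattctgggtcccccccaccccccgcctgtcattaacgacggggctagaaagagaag
Csf2ra: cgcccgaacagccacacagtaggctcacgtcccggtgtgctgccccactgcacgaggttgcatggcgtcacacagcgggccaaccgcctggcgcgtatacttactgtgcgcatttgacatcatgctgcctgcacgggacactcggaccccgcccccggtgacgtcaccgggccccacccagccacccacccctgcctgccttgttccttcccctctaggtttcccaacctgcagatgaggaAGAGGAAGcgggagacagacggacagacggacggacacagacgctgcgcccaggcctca
The motif began at position -87 in Csf3r and -9 in Csf2ra, and it occurred on either strand in 1495 of 32851 windows (4.55%). Its core GAGGAA, in 28.3% of windows, overlaps it and was also found 2 times on the other strand in Csf2rb2, and in the window of neither Csf1 nor Csf2. Csf2ra-201 starts at the RefSeq start. The leading transcript of Csf3r starts 2633 bases downstream of it, so the Csf3r window lies near the start of Csf3r-202, which is 109 bases upstream of the RefSeq start. The motif at -87 therefore lies downstream of the start of Csf3r-202. Spi1 itself was at 49.6 TPM in replicate 1 and at 28.9 TPM in replicate 2.

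Csf2rb and Csf2rb2 encode beta chains: Csf2rb that shared by the receptors for Csf2, interleukin-3 and interleukin-5, and Csf2rb2 a chain that, in mice, serves interleukin-3. They lie side by side on mm10 chromosome 15 in opposite directions, Csf2rb (ENSMUSG00000071713.6) at 78325752 to 78353847 on the plus strand and Csf2rb2 (ENSMUSG00000071714.7) at 78282507 to 78305721 on the minus strand, with the starts of their leading transcripts 20269 bases apart. Csf2rb was at 42.5 TPM in replicate 1 and at 28.0 TPM in replicate 2, a mean of 35.2 ± 10.2 TPM (SD, n = 2). Csf2rb2 had 44.9 and 31.5 TPM, a mean of 38.2 ± 9.50 TPM (SD, n = 2). Neither library set the pair apart by more than 0.17 on the log2 scale. The sum of both beta chains differed from Csf2ra by 0.04 ± 0.01 on the log2 scale (SD, n = 2; kallisto 0.14 ± 0.16). It includes Csf2rb2 and all transcripts of Csf2ra, so it does not compare the chains of 1 receptor. By RSEM, transcripts of full coding length had a mean of 33.8 TPM for Csf2ra and 28.7 TPM for Csf2rb. The leading transcript Csf2rb2-201 had a mean of 37.6 TPM.

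The beta chain genes are close copies. Their coding sequences (2688 and 2634 bases) were identical at 2503 of 2628 aligned positions (95.2%), the longest identical run was 242 bases, and 1369 stretches of 31 bases occurred in both leading transcripts (28.9% of those of Csf2rb-201 and 29.2% of those of Csf2rb2-201). The same 90 coding bases of each, 2295 to 2384, are shown as an example, with the 2 differing positions in capitals (from the GENCODE M21 transcripts).
Csf2rb-201, chromosome 15: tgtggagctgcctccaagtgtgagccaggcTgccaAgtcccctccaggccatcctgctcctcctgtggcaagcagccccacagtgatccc
Csf2rb2-201, chromosome 15: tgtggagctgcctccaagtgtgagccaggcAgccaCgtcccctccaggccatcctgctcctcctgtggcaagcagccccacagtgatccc
The order of the pair turned with the quantifier: Csf2rb2 minus Csf2rb was 0.12 ± 0.06 in log2 TPM (SD, n = 2) and -0.74 ± 0.01 by kallisto. Between the leading transcripts alone, a comparison chosen like that of the pair after seeing the data, Csf2rb2-201 (43.9 and 31.4 TPM) and Csf2rb-201 (35 and 21.7 TPM), the difference was 0.43 ± 0.15 (SD, n = 2) and by kallisto 0.42 ± 0.16. The kallisto tables gave 50.6% and 45.4% of Csf2rb to protein-coding transcripts and the rest to others, such as the retained intron Csf2rb-207 and the processed transcript Csf2rb-203. The levels of the 2 genes are therefore uncertain relative to each other.

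**Figure D3:**
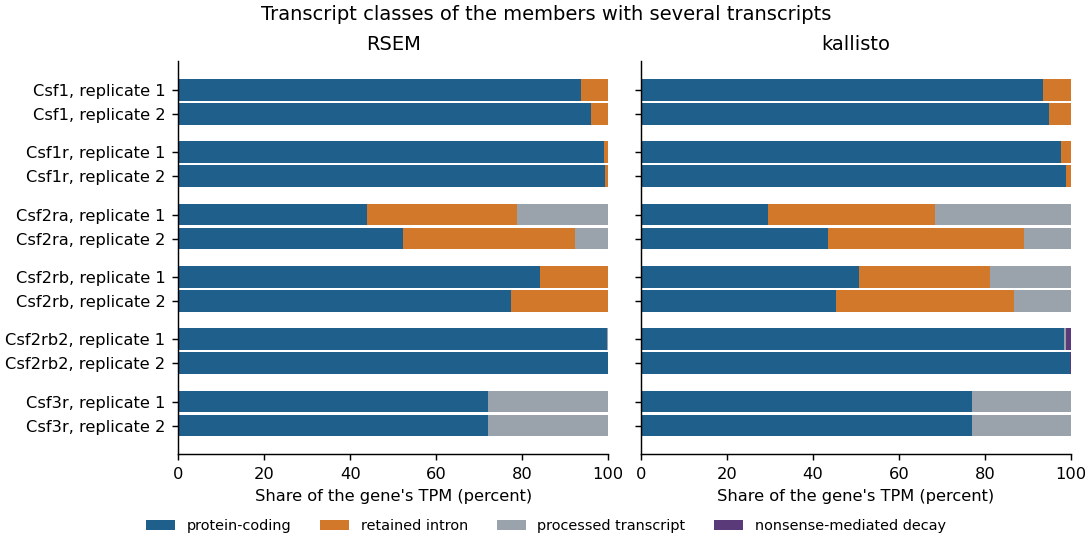
Share of each gene's TPM (horizontal axis, percent) by annotated transcript class, for the 6 members with several transcripts, in replicate 1 (upper bar of each pair) and replicate 2, from RSEM (left) and kallisto (right). Csf1, Csf1r and Csf2rb2 are nearly all protein-coding, Csf2ra was 43.9% and 52.3% protein-coding by RSEM, and Csf2rb differs most between the tables. The protein-coding share of Csf1r includes the 416-base Csf1r-205, which held 11.3% and 39.9% of the gene by RSEM.

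Across these 6 genes the protein-coding share of TPM ran from 48.1 ± 5.91% for Csf2ra to 99.8 ± 0.220% for Csf2rb2 (SD, n = 2). Csf3r had 72.1 ± 0.040%, Csf2rb 80.8 ± 4.75%, Csf1 94.9 ± 1.64% and Csf1r 99.1 ± 0.132% (SD, n = 2 each). The Csf1r share includes the 416-base Csf1r-205. Csf1r-201 and Csf1r-202, of full coding length, summed to 259 of 295 TPM in replicate 1 and 134 of 225 TPM in replicate 2. The kallisto means were 36.5% for Csf2ra and 48.0% for Csf2rb. By RSEM counts the shares were higher, 91.8% and 91.9% for Csf3r and 93.0% and 89.9% for Csf2rb. Csf2 and Csf3 have 1 annotated transcript each.

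Between the libraries Csf2, which rests on few counts, differed most among the members tested. Expected counts were rounded, normalised by TMM and set as a log2 ratio, replicate 1 over replicate 2, for genes averaging 10 or more counts, which kept 7 members and left out Csf3. Csf2 was the 1 member of 7 over 2-fold apart, against 8.59% of 14052 genes (4.16% over 2-fold higher in replicate 1 and 4.43% in replicate 2). Its ratio was -2.41 (counting interval -3.64 to -1.42), or 5.32-fold, and 0.178% of genes had a lower ratio. Csf1 followed at -0.97 (-1.01 to -0.92), or 1.95-fold, with 4.82% of genes below it. Among the receptor genes Csf1r had 0.39 (0.36 to 0.42), Csf2rb 0.22, Csf3r 0.17, Csf2rb2 0.05 and Csf2ra -0.03. These 5 and Csf1 lay inside the central 95% of genes, -1.25 to 1.22. With 1 library on each side there is no test, and the libraries also differ in RNA input and depth, whose part was not tested.

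**Figure D4:**
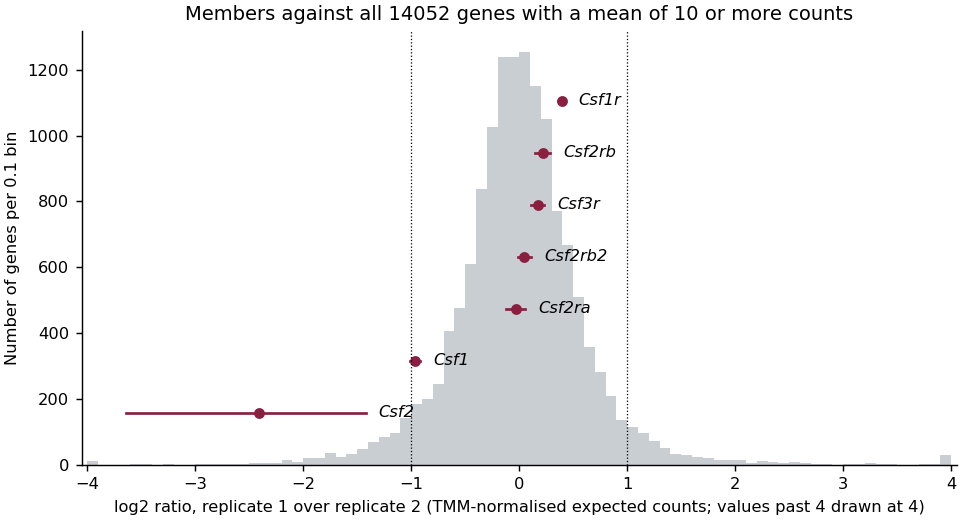
Log2 ratio, replicate 1 over replicate 2, of TMM-normalised counts (horizontal axis) for all 14052 genes tested (grey, number of genes per bin on the vertical axis) and for 7 members (points, with 95% counting intervals; their height has no meaning). Dotted lines mark 2-fold. Csf2 at -2.41 and Csf1 at -0.97 lie to the left, and the 5 receptor genes lie between -0.03 and 0.39.

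Genes that act with the members were described by lists. Over all annotated protein-coding genes the share at 1 TPM in both libraries was 39.9%. Of 25 signal transducers of these receptors 24 reached 1 TPM in both libraries (median 22.9 TPM in replicate 1 and 16.6 in replicate 2). The kinase gene Syk had 309 and 239 TPM, and Tyrobp, an adaptor known to link Csf1r to Syk, 144 and 80.9 TPM. Jak2, the kinase of the Csf2 receptor, had 51.1 and 44.5 TPM. Of 14 negative regulators 12 reached 1 TPM (median 14.8 and 10.7 TPM). Socs3, the inhibitor known to act on Csf3r, had 188 and 133 TPM, the ubiquitin ligase gene Cbl, which acts on Csf1r, 64.7 and 43.4 TPM, and the phosphatase gene Ptpn6 64.9 and 21.6 TPM.

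In the lists of transducers, negative regulators and transcription factors 4 genes were over 2-fold apart, of 25, 14 and 9 tested, which is close to the 8.59% of all genes. They are named after their values were seen, as a description. Cish, an inhibitor that STAT5 is known to induce, was at 0.70 TPM in replicate 1 and at 2.64 TPM in replicate 2, a log2 ratio of -2.04, and was the 1 of the 4 higher in replicate 2. Its counts were 72 and 195. Socs2 (0.90 and 0.10 TPM; log2 ratio 1.41), the kinase gene Pik3cd (27.0 and 9.73 TPM; 1.09) and the transcription factor gene Cebpb (60.7 and 14.8 TPM; 1.59) were higher in replicate 1. Socs2 rests on 26 and 6 counts. In raw kallisto TPM Socs2 (0.628 and 0.601), Pik3cd (9.88 and 8.94) and Cebpb (17.9 and 9.28) were less than 2-fold apart. Cish (0.342 and 1.16) was over 2-fold apart on that scale too. Unlike the count ratios, these TPM were not normalised between the libraries. The kallisto scale runs lower in replicate 1 (-0.38, as given above), which narrows the gap for genes higher there.

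Of 10 transcription factors known to act on the receptor genes 8 reached 1 TPM in both libraries (median 23.4 TPM in replicate 1 and 14.1 TPM in replicate 2). Runx1 had 42.2 and 41.4 TPM, and Cebpe, a factor of granulocyte maturation, stayed under 0.1 TPM. Of 13 related ligands and receptor chains 3 reached 1 TPM: Il3ra, the alpha chain that pairs with the beta chains for interleukin-3, at 20.0 and 9.96 TPM, the Flt3 ligand gene Flt3l at 4.37 and 4.30 TPM and the Kit ligand gene Kitl at 1.96 and 1.23 TPM. Il5ra, the alpha chain for interleukin-5, was at 0.04 and 0 TPM, and Il5 was also under 0.1 TPM. Il34, the other ligand of Csf1r, and Il3 had 0 counts in both RSEM tables (kallisto up to 0.236 and 0.036 TPM), and so had the erythropoietin and thrombopoietin genes Epo and Thpo.

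**Figure D5:**
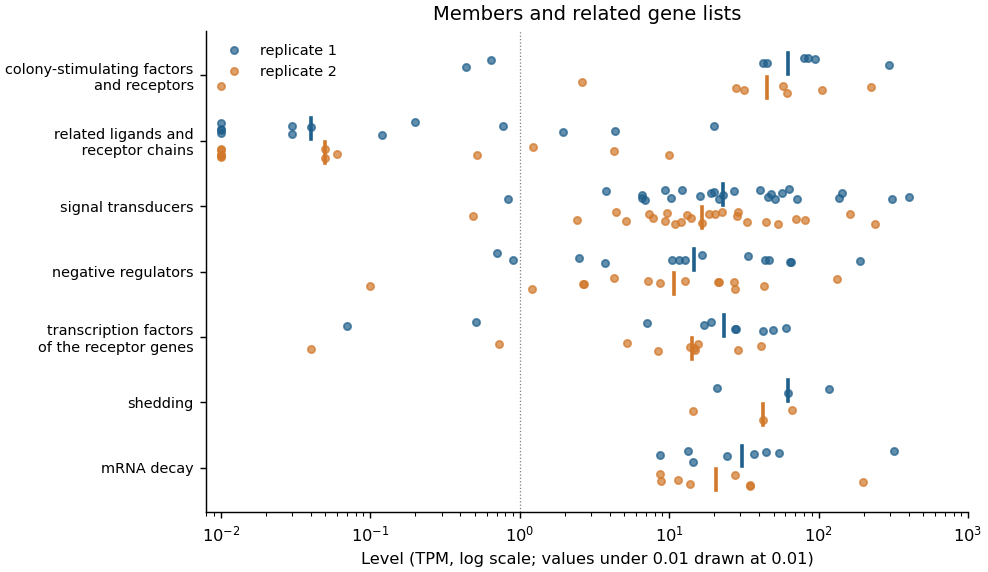
Levels (horizontal axis, TPM on a log scale) of the 8 members and of the genes in 6 related lists, 1 point per gene and library, replicate 1 above replicate 2. Vertical ticks are medians and the dotted line is 1 TPM. Related ligands and receptor chains lie mostly below 1 TPM (3 of 13 reached it in both libraries), while 24 of 25 signal transducers did.

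For each member of 1 TPM or more in both libraries, the protein-coding gene nearest in level over the 2 libraries was found by distance in log2(TPM + 0.1). Csf1r was nearest to Lrp1 (305 and 226 TPM; distance 0.046) and Csf1 to Nptn (84.0 and 112 TPM; 0.12). Csf3r was nearest to Atp6ap2, Csf2ra to Gnb1, Csf2rb to Pikfyve and Csf2rb2 to Tnfaip8, each within 0.042. With 2 libraries of 1 group, likeness in level says little else.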

How the data were processed

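RNA was measured in 2 libraries of 1 group, so no contrast between conditions exists and no test was made. Per the readme files deposited with the tables, mm10 and the GENCODE M21 annotation were used. RSEM-format gene and transcript tables came from transcriptome alignments and kallisto-format tables from reads. Not given in the sources used here: the aligner, its version and strand handling. The deposited tables, per their file headers, hold expected counts, which divide reads among transcripts, TPM, which divides them by effective length, and bounds of a TPM interval, treated as a score because their level is not stated. The bounds go with a posterior mean, so a TPM can lie outside them. Dividing by a short effective length gives short transcripts large, unstable TPM, and overlapping or near-identical genes can exchange counts.

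Members, lists and rules were chosen with earlier results of these data known. Rows naming no annotated gene were left out, at 1.19% (replicate 1) and 0.215% (replicate 2) of all counts. TMM factors for the rounded expected counts came from edgeR 4.0.16 under R 4.3.3, with 0.5 added before the log2 ratio, and by DESeq2 1.42.0 size factors as an alternative. Other alternatives were kallisto values, posterior mean TPM, other pseudocounts (1 and 0.01 TPM) and floors (0.5 and 5 TPM), TPM rescaled to nuclear protein-coding genes, and each library alone. Ratio intervals and 95% Wilson intervals cover counting error only. Named genes were all members, the 3 highest and up to 3 under 0.1 TPM in each list, the highest marker of each list, the nearest gene in level, and transcripts with 10% or more of a gene. Jak2 and the related ligands at 0 counts were named outside this rule, after their values were seen, and a few genes under this rule are not reported here. Promoter sequences are RefSeq (GRCm38.p6). Python 3.11.15, numpy 2.4.6, pandas 2.3.3, scipy 1.17.1 and Biopython 1.88 were used, and the ratio step was tested on simulated data.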

Additional observations from a re-analysis of the deposited data

Results flagged for a closer look

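Some RNAs that the RSEM tables list at 0 carried more than 3 kallisto counts. The 3 is the counting limit used for a value of 0 within 1 table, and it does not bound what another quantifier assigns. For Csf3 in replicate 2 kallisto listed 8 counts. Csf1-207 had 9.75 kallisto counts in replicate 1 and 20.8 in replicate 2, and Csf1r-203 had 26.5 and 115. Csf2ra-207, a protein-coding transcript of the same coding length as Csf2ra-201, had 332 and 415, and the processed transcript Csf2rb-203 had 58.8 and 38.9. These 4 transcripts were at 0 TPM in both libraries by RSEM.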

How the results depend on the processing

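The number of members at 1 TPM or more was 6 or 7 under each alternative, and 6 to 7 in each library alone. The number of separated neighbouring pairs stayed at 5 under other pseudocounts, posterior means and kallisto TPM, and could not be given for 1 library, which has no spread. Members were put in order anew under each setting, so the number can stay while the pairs change. By kallisto Csf2ra over Csf3r (0.16) and Csf2rb over Csf2rb2 (0.74) were called separated, both the reverse of the RSEM calls. With kallisto counts, where 11.8% of genes were over 2-fold apart, and with no filter on low counts, 2 members were over 2-fold apart, Csf2 and Csf3. Without the filter the share over all genes was not counted, so that number has no background. Csf3 rests there on 14 and 0 counts. Csf2rb2 minus Csf2rb was -0.74 by kallisto; the cause was not tested. Mean TPM was lower by kallisto for 8 of 8 members, and the same share over all genes was not counted. Mean TPM was higher after rescaling for 8 of 8, as it must be, since rescaling raises every level above 0. The number after rescaling is therefore not particular to the members, and whether the kallisto number is was not tested. Of 24 alternative log2 ratios 21 had the sign reported. The exceptions were Csf1r (-0.08 as TPM relative to the median gene, 0.48 without Csf1r-205) and Csf2ra (0.06 as TPM and 0.12 by kallisto). No paired analysis was possible because the series holds 1 group. SDs over 2 libraries are imprecise, and 10 to 36 counts limit Csf2, as 14 do Csf3.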

Other observations

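Genes that act on the products of the members were also present. Of 3 genes for shedding of surface proteins, 3 reached 1 TPM in both libraries. Adam17, the protease known to release Csf1r and cell-surface Csf1, was at 117 TPM in replicate 1 and at 66.6 TPM in replicate 2. Rhbdf2, which guides its maturation, had 62.2 and 42.2 TPM, and Adam10 21.04 and 14.4 TPM. Of 8 genes for decay or binding of AU-rich messages, 8 reached 1 TPM (median 30.8 and 20.7 TPM), against 39.9% of annotated protein-coding genes. By TMM-normalised counts 0 of them were over 2-fold apart, against 8.59% of all genes tested, so this 0 is near that share. Zfp36, which encodes tristetraprolin, had 319 and 199 TPM, Zfp36l1 54.6 and 34.6 TPM and Hnrnpd 37.1 and 34.97 TPM.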
